A study of Rattus norvegicus with 18 samples.

Results

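The cytoplasmic ribosomal protein genes were taken from the gene count table of this study of rat brain by name. A protein-coding gene belonged to the set if its symbol began with Rpl or Rps followed by a digit, or was Rplp0, Rplp1 or Rplp2, and did not begin with Rps6k, the prefix of the ribosomal S6 kinases. Where 1 symbol had several entries, the entry with the highest mean count was used. This gave 91 members of 34873 listed genes, of which 53 have symbols of the large subunit, 34 of the small subunit and 3 of the acidic stalk. Some of these are pseudogenes in RefSeq, such as Rps2-ps6 and Rps27a-ps1. The last of the 91, Rps19bp1, is by its description a regulator of the deacetylase SIRT1 and no ribosomal protein.

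The 3 groups of 6 libraries each were compared. NC was wild-type brain with no treatment. CO was wild-type brain of rats that had inhaled carbon monoxide, at 1000 ppm for 40 min and then at 3000 ppm for 20 min, which per the design text took carboxyhemoglobin above 60%. CLCF1 had inhaled CO in the same way and carries the label of a Clcf1 knock-down. Clcf1 codes for a secreted cytokine that acts through the ciliary neurotrophic factor receptor. The design text also describes lentiviral knock-down in bone marrow-derived macrophages and their transfer into rats after liposomes had removed the macrophages of the host. Whether NC and CO rats received liposomes or cells is not stated, nor whether each library is a separate animal. The p-values therefore describe the spread among the libraries at hand, and that spread may be technical. In bulk tissue, fewer cells of a type and less RNA per cell cannot be told apart.

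Cytoplasmic ribosomes are built from a small and a large subunit, each a scaffold of ribosomal RNA clothed in proteins that are made in near-equal amounts. The mRNAs of these proteins are among the most abundant of a cell and typically start with a cytosine followed by a run of pyrimidines, the 5′ terminal oligopyrimidine tract, through which the kinase mTOR controls their translation. In mammals most of these genes have many processed copies elsewhere in the genome, some annotated as pseudogenes and some as genes. A read from one of them can match another, so the count of a single entry is uncertain wherever a close copy exists.

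The tract can be read at the start sites that RefSeq gives for rat (GRCr8). An entry was found by symbol for 61 of the 91 members (67%). For some of them, such as Rpl37 and Rps4x, it lies on another chromosome than the entry whose counts were used. The windows below run 5′ to 3′ on the coding strand, from 10 bases before the start site to 19 bases after it, and capitals mark a cytosine followed by 4 or more C or T that begins within 5 bases of the start. They are shown for members whose level is described below, 6 with such a run and 2 without.
Rplp0, chr12:46718371-46718400, minus strand: caccgcacttCTCTCgccaggcgtcctcat
Rplp1, chr8:71290853-71290882, minus strand: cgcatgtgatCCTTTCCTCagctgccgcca
Rps3a, chr2:173827023-173827052, minus strand: gtacttccgcCCTTTTggctctcagagcgg
Rpl34, chr2:221962264-221962293, minus strand: tccttttcctCTTCCggggacggtgcttag
Rps27, chr2:177964587-177964616, minus strand: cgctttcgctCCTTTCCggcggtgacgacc
Rps27a, chr14:107488922-107488951, minus strand: agggcggttCCTTCgacccggagactcggt
Rpl26, chr10:54109682-54109711, plus strand: gtcaacttacagaaccggaagtcgcatgta
Rpl41, chr7:1563478-1563507, minus strand: ctcggaagtgacgacaccaagcacgccatt
In the first 5 a cytosine with 4 or more C or T after it stood exactly at the annotated start, and capitals run from there, although C or T can also precede it. In Rps27a it stood 1 base before the start (offset -1). Within 5 bases of the start, the rule that the capitals follow, such a run began in 34 of the 61 matched members (55.7%) and in 4656 of the 27456 genes of the RefSeq table with a usable window (17%). Exactly at the start it was present in 21 of the 61 matched members (34.4%), and in 722 of those genes (2.63%). The box TATAAA, searched on both strands of the 300 bases around the start, was present in 8 matched members (13.1%) and in 14.3% of all genes, and CCGGAAG in 20 members (32.8%) and in 9.22% of all genes. Since under 80% of the members had an entry, the comparison is void for the family as a whole, and a match describes letters only.

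Before the results, a property of the libraries has to be stated. Counted over the 3 groups, there were 42660 instances of a gene that was at 0 in the first pair of libraries, and in 0 of them was a read counted in libraries 3, 4, 5 or 6 of that group. The ribosomal protein genes differed between libraries 1 and 2 as a block and less among libraries 3 to 6, where the median of the members spanned 0.04, 0.07 and 0.06 on the log2 scale in NC, CO and CLCF1. Of the 68 members above 16 CPM (counts per M counts of the library, scaled with edgeR's TMM), 58 were higher in library 1 than in library 2 in NC, 57 in CO and 57 in CLCF1. The median difference was 0.32, 0.37 and 0.23 on the log2 scale, against -0.05, 0.01 and -0.03 over all genes tested. In libraries 3 to 6 the share of members above their own group mean was 45.6% to 54.4% in NC, 42.6% to 60.3% in CO and 51.5% to 55.9% in CLCF1, where library 1 had 80.9%, 82.4% and 80.9% and library 2 had 20.6%, 20.6% and 17.6%. Taken member by member, 44.1%, 45.2% and 40.1% of the values in libraries 3 to 6 of NC, CO and CLCF1 lay between those of libraries 1 and 2. The other values lay outside that range. For the zeros, by contrast, of the 14447 genes at 0 in NC libraries 3 and 4, 777 had a count in another NC library. In CO and CLCF1 these were 617 of 15090 and 439 of 14956. If libraries 3 to 6 are not independent of libraries 1 and 2, which was not tested, the adjusted p-values from 6 libraries a group are too small. This holds for every such p-value below. Values from libraries 1 and 2 alone are therefore also given for the members as a whole, the summed proteins as a whole and some named genes. That leaves 2 libraries a group. Other values, including most of those for gene lists and cell type markers, rest on 6 libraries a group.

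**Figure D1:**
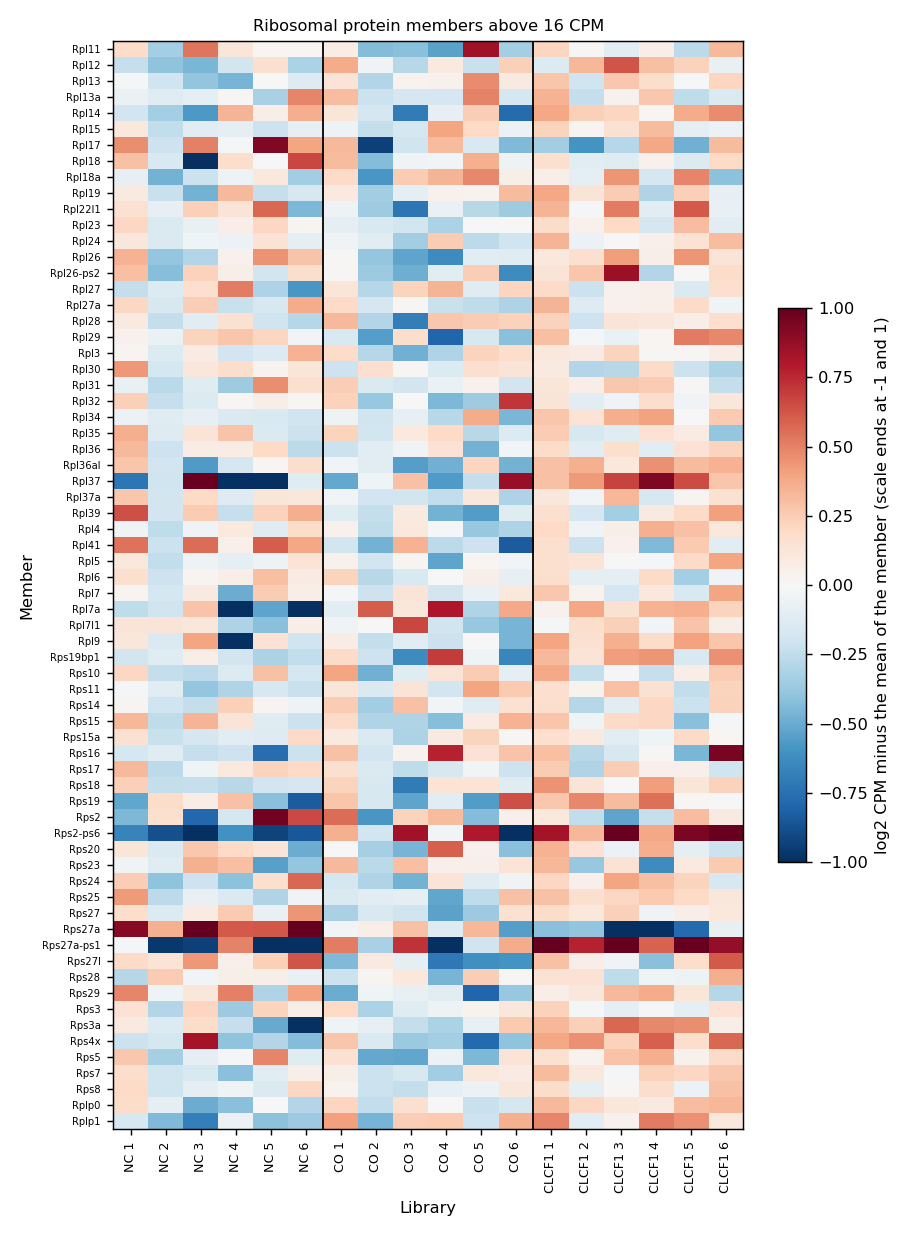
The log2 CPM of the 68 members above 16 CPM, each minus its own mean over the 18 libraries, with members in rows by subunit and libraries in columns by group; red is above the mean of the member and blue below it. In NC library 2 and CO library 2, 8.82% and 7.35% of the members are above their mean, in CLCF1 library 1 94.1% are, and in libraries 3 to 6 of the 3 groups 33.8% to 72.1%.

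Depth was 15.1 to 20.3 M counts per library, and 79 of the 91 members had enough counts to be tested among 16581 genes. As a check of the labels, Clcf1 stood at 0.161 ± 0.090 CPM in NC, 6.23 ± 1.04 in CO and 0.055 ± 0.070 in CLCF1 (mean ± SD, n = 6). It was higher in CO than in NC (log2 fold change 5.19 ± 0.45, SE, adjusted p = 7.46e-06 in edgeR) and lower in CLCF1 than in CO (-6.67 ± 0.51, adjusted p = 9.00e-07). Below, CPM are given ± SD over 6 libraries and log2 fold changes ± SE. Adjusted p-values are from edgeR's quasi-likelihood test over all genes tested, with a threshold of 0.05.

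The members together took 2.04% to 2.39% of the counts in NC (median 2.20%), 1.84% to 2.40% in CO (median 2.12%) and 2.26% to 2.58% in CLCF1 (median 2.43%). The 3 ranges overlap, and in every group the values of libraries 3 to 6 lie between those of libraries 1 and 2. Libraries 1 and 2 averaged 2.22% in NC, 2.12% in CO and 2.42% in CLCF1. The protein-coding genes on the mitochondrial chromosome accounted for 12.2% ± 1.64 in NC, 10.0% ± 0.747 in CO and 11.48% ± 1.07 in CLCF1, and the mean share of both these genes and the members was lowest in CO. The proteins of the mitochondrial ribosome, coded in the nucleus and built into a separate machine, took 0.309% ± 0.0084, 0.313% ± 0.013 and 0.312% ± 0.025. The ratio of large-subunit to small-subunit counts was 1.48 ± 0.086 in NC, 1.38 ± 0.083 in CO and 1.40 ± 0.066 in CLCF1, with overlapping ranges.

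**Figure D2:**
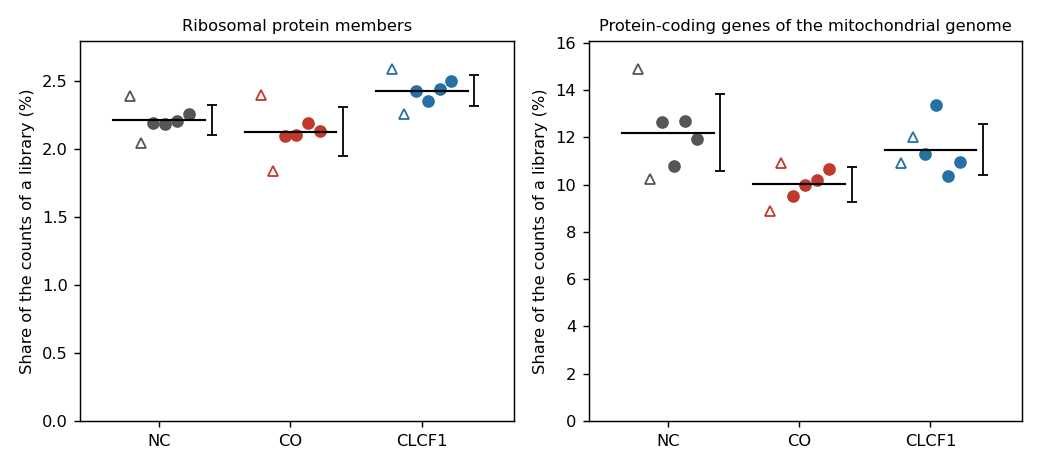
Share of each library's counts (percent) in the 91 ribosomal protein members (left) and in the protein-coding genes of the mitochondrial genome (right) for the 6 libraries of each group. Open triangles are libraries 1 and 2, filled circles libraries 3 to 6, the line is the mean and the bar the SD; in the left panel the circles sit between the triangles in each group.

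Per kilobase of annotated transcript, the most abundant members were Rplp1, a stalk protein that recruits elongation factors, at 1324 CPM per kb, Rpl41, whose product is a very short basic peptide of the large subunit, at 1252, and Rpl13a at 1212 (means of 18 libraries). The least abundant of those tested were Rpl3l at 0.352 CPM per kb, Rps15al2 at 2.02 and Rpl37-ps1 at 3.58. Rpl3l is the striated-muscle counterpart of Rpl3. It had 0.305 ± 0.213 CPM in NC, 0.721 ± 0.282 in CO and 0.398 ± 0.285 in CLCF1, against 655, 626 and 690 for Rpl3. The widest gaps between libraries 1 and 2 of a group were those of Rpl3l (3.11 on the log2 scale, in CLCF1), Rpl35a (2.57, in NC) and Rpl37-ps1 (1.98, in CLCF1). The median SD within groups of the 68 members above 16 CPM was 0.27 on the log2 scale, and the same median over all 8111 tested genes above 16 CPM was 0.27.

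The 12 members with too few counts to be tested were Rpl10a, Rpl22l2, Rpl23a, Rpl26-ps1, Rpl31l3, Rpl38, Rpl39l, Rplp2, Rps15-ps2, Rps17l, Rps19l1 and Rps27l3. Rpl10a and Rpl23a had no count in any library. Both code for proteins of the large subunit. The entry with the highest count among the 5 described as L10a, and among the 11 described as L23a, had only a locus number for a name. Of the 5 entries described as P2, the third stalk protein, Rplp2 held 0.124% of the counts. The paralogue Rpl39l lay between 0 and 3.12 CPM.

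Carbon monoxide inhalation was compared with no treatment. Of the 79 tested members, 2 were higher and 6 lower in CO than in NC, and 71 did not pass. That is 10.1% of the members against 12.7% of all genes tested (6.32% higher and 6.4% lower), so the share called was near the background. The median log2 fold change of the members was -0.03, with 35 above 0 and 44 below, and that of all genes was 0.01. Libraries 1 and 2 alone gave a median of -0.05 and 0 members called by edgeR, with 2 at an unadjusted p below 0.05 and 0 called by DESeq2. Of all 16820 genes in that edgeR fit, only 4 were called higher and 0 lower, and 594 had an unadjusted p below 0.05.

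The members that were lower in CO were Rps27, Rps27l, Rps27a and Rps29 of the small subunit and Rpl41 and Rpl37-ps1 of the large subunit. Rps27, also called metallopanstimulin, lay at 148, 179 and 222 CPM in NC (lowest, median, highest) and at 113, 136 and 181 in CO. The groups overlapped, and the fold change was -0.36 ± 0.12 (adjusted p = 0.0453 in edgeR). Its paralogue Rps27l, a target of p53, lay at 17.1, 19.2 and 25.5 CPM in NC and at 10.0, 11.502 and 17.5 in CO. It fell by 0.66 ± 0.18 on the log2 scale (adjusted p = 0.0198 in edgeR), and this call held when any 1 library was left out.

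Rps29 lay at 186, 276 and 326 CPM in NC and at 132, 195 and 222 in CO, a fall of 0.52 ± 0.16 on the log2 scale (adjusted p = 0.0379 in edgeR). With the 5 entries described as S29 summed, the change was -0.28 ± 0.13 and did not pass (adjusted p = 0.163). Rpl41 lay at 460, 740 and 815 CPM in NC and at 300, 454 and 681 in CO, with overlap (-0.58 ± 0.18, adjusted p = 0.0410). Its level in CLCF1, 393, 523 and 643 CPM, differed from neither group past the threshold. Leaving out 1 library at a time ended the call for Rps27 in 13 of 18 cases, for Rpl41 in 9 and for Rps29 in 6, with adjusted p up to 0.1005, 0.0947 and 0.0950 in edgeR.

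The members that were higher in CO were Rps2-ps6 and Rpl7a. Rps2-ps6 is protein-coding in the count table and a pseudogene in RefSeq. It lay at 26.1, 37.5 and 45.0 CPM in NC and at 31.7, 77.5 and 122 in CO, a change of 1.12 ± 0.25 (adjusted p = 0.00847 in edgeR) that held when any 1 library was left out. Rps2 itself, a core protein of the small subunit that is named here after its values were seen, had 450 ± 209 CPM in NC and 416 ± 121 in CO, and the 17 entries described as S2 summed changed by 0.05 ± 0.22 (adjusted p = 0.895). Rpl7a, of the large subunit, lay at 7.91, 14.9 and 23.7 CPM in NC and at 15.8, 23.2 and 34.3 in CO (0.71 ± 0.23, adjusted p = 0.0474 in edgeR, and up to 0.106 when 1 library was left out, which ended the call in 15 of 18 cases). This entry held 16.2% of the counts of the 31 entries described as L7a, whose sum changed by 0.26 ± 0.11 (adjusted p = 0.118). Another entry with the symbol Rpl7a, named here after its values were seen, had a median of 16.7 CPM in NC and 12.4 in CO. It changed by -0.58 ± 0.22 in CO against NC (adjusted p = 0.0892 in edgeR) and by 0.96 ± 0.22 in CLCF1 against CO (adjusted p = 0.00733). Rpl37-ps1, a pseudogene in RefSeq, fell by 1.90 ± 0.50 on the log2 scale (adjusted p = 0.0182 in edgeR), from 1.51 ± 0.67 to 0.40 ± 0.292 CPM.

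The knock-down group was then compared with the CO group. Of the 79 members 8 were higher and 1 lower in CLCF1 than in CO, and 70 did not pass. That is 11.4%, below the 17% of all genes tested (8.63% higher and 8.34% lower). The members' median was 0.16, with 61 of 79 above 0, beside a median of 0.00 over all genes with 50.2% above 0. The median was 0.16 in the large subunit (35 of 46 above 0) and 0.15 in the small subunit (23 of 30 above 0). In libraries 1 and 2 alone the members' median was 0.18, with 62 of 79 above 0. There 0 members were called by edgeR (1 at an unadjusted p below 0.05) and 0 by DESeq2. Of all 16820 genes in that edgeR fit, only 2 were called higher and 6 lower, and 817 had an unadjusted p below 0.05. The median standard error of a single member was 0.16.

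Of the members higher in CLCF1, 6 were among the 46 tested of the large subunit, Rpl37-ps1 included, and 2 among the 30 of the small subunit, and the difference between the subunits was not tested. Rpl26, which also binds the p53 mRNA, lay at 406, 596 and 722 CPM in NC, 343, 446 and 534 in CO and 552, 587 and 720 in CLCF1. Every CLCF1 library was above every CO library (0.50 ± 0.15, adjusted p = 0.0254 in edgeR). Rpl36al, 1 of 2 entries of that symbol, is on the X chromosome and held 46.7% of the counts of the 8 entries described as L36a. RefSeq had no entry under this symbol. Rpl36al lay at 77.3, 93.2 and 131 CPM in CO and at 122, 142 and 156 in CLCF1 (0.53 ± 0.15, adjusted p = 0.0186). It was called whichever single library was left out. Rpl29, Rpl34 and Rpl22l1 rose by 0.51 ± 0.15, 0.34 ± 0.11 and 0.53 ± 0.17 (adjusted p = 0.0234, 0.0470 and 0.0366 in edgeR), each with overlapping groups. The call was lost in 16 of 18 cases of leaving out 1 library for Rpl34 and in 8 for Rpl22l1. For Rpl26 it was lost without CO library 3 or 4 or CLCF1 library 3 or 5 (adjusted p up to 0.0650 in edgeR), and for Rpl29 without CO library 4 or 6 or CLCF1 library 5 or 6 (up to 0.0560).

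In the small subunit Rps27l, which had been lower in CO than in NC, stood at 12.3, 18 and 25.3 CPM in CLCF1, above CO (0.52 ± 0.18, adjusted p = 0.0484 in edgeR, lost in 15 of 18 cases of leaving out 1 library). The 2 comparisons share the CO libraries. Rps4x, described as the X isoform of S4, is an entry on chromosome 4 that held 19.6% of the S4 counts, while LOC100362640 on the X chromosome, named here after its values were seen, held the most. Rps4x lay at 48.5, 65.2 and 101 CPM in CO and at 94.1, 112 and 126 in CLCF1 (0.67 ± 0.20, adjusted p = 0.0288 in edgeR, lost in 6 of 18 cases of leaving out 1 library, with adjusted p up to 0.0679). The 3 entries of S4 summed changed by 0.35 ± 0.16 and did not pass (adjusted p = 0.151). In the large subunit, the pseudogene Rpl37-ps1 rose by 1.61 ± 0.50 (adjusted p = 0.0315 in edgeR), to 1.24 ± 0.855 CPM, and this call was lost in 7 of 18 such cases (adjusted p up to 0.0879).

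**Figure D3:**
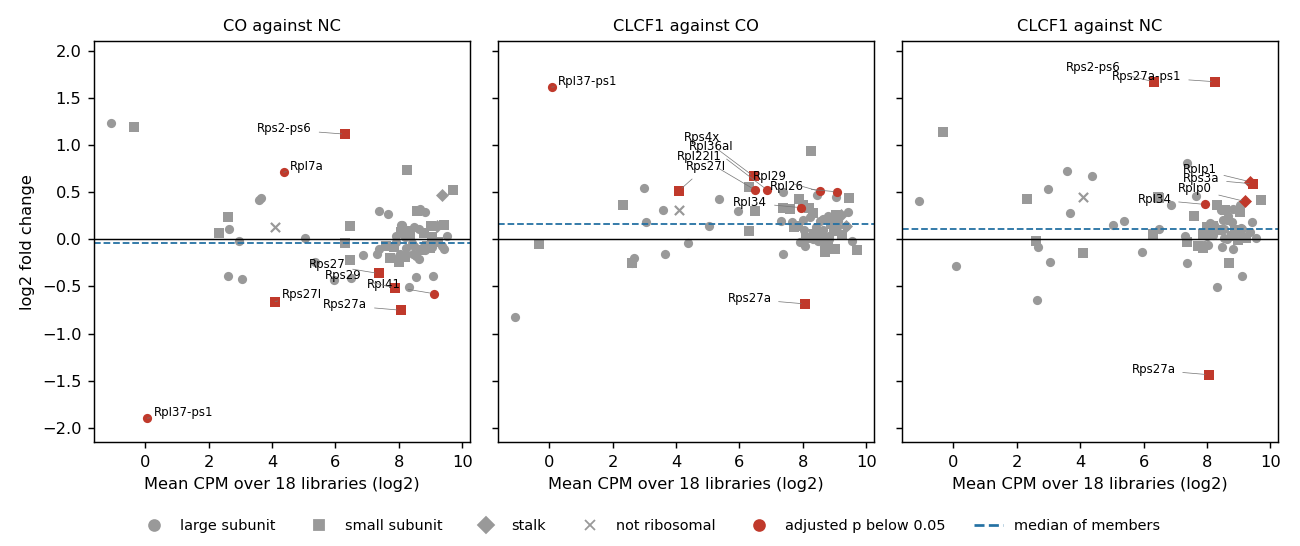
The log2 fold change of the 79 tested members against their mean CPM over 18 libraries on a log2 axis, in each comparison; red points passed the threshold and are named, grey ones did not, shapes give the subunit and the dashed line is the median of the members. The medians are -0.03, 0.16 and 0.11, and Rps27a is the only red point below 0 in the comparisons with CLCF1.

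Against NC, 6 members were higher and 1 lower in CLCF1, and 72 did not pass. This is 8.86%, beside 9.26% of all genes tested (4.43% higher and 4.84% lower). The median was 0.11, with 59 of 79 above 0, and over all genes 0.01. Libraries 1 and 2 alone gave a median of 0.14 with 62 of 79 above 0. There 0 members were called by edgeR, 6 had an unadjusted p below 0.05, and DESeq2 called 2. Of all 16820 genes in that edgeR fit, only 2 were called higher and 0 lower, and 418 had an unadjusted p below 0.05. The share of all genes that DESeq2 called is not given here.

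Both stalk genes with enough counts were higher in CLCF1 than in NC. The stalk, made of P0 with P1 and P2 bound to it, draws translation factors to the ribosome. Rplp1 lay at 397, 487 and 611 CPM in NC, 462, 760 and 844 in CO and 590, 780 and 914 in CLCF1. It was higher in CLCF1 than in NC by 0.61 ± 0.16 (adjusted p = 0.0198 in edgeR), with CLCF1 and NC overlapping, and missed the threshold without NC library 3 or CLCF1 library 4 (adjusted p up to 0.0508). Its difference between CO and NC, 0.47 ± 0.16, missed the threshold (adjusted p = 0.0526). Rplp0, which binds the large subunit directly, had medians of 505, 548 and 692 CPM in NC, CO and CLCF1, and was 0.40 ± 0.12 above NC in CLCF1 (adjusted p = 0.0385, lost in 11 of 18 such cases).

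Rps3a, a small-subunit protein, lay at 325, 593 and 765 CPM in NC and at 700, 889 and 1000 in CLCF1 (0.59 ± 0.16, adjusted p = 0.0305 in edgeR, lost in 6 of 18 such cases). Rpl34 lay at 210, 219 and 231 CPM in NC and at 240, 290 and 317 in CLCF1, with no overlap (0.37 ± 0.11, adjusted p = 0.0458, lost in 13 of 18 such cases). Rps2-ps6 lay at 86.1, 126 and 154 CPM in CLCF1, above every NC library (1.67 ± 0.26, adjusted p = 0.000817). It was called whichever library was left out, and in libraries 1 and 2 alone its fold change was 1.35.

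The member that was lower in CLCF1 than in NC was Rps27a. This gene codes for a fusion of ubiquitin with the small-subunit protein S27a, which is cleaved to give both. In the table it is on chromosome 14, minus strand, from 113966611 to 113968268, in a build that is not settled, since the submitters' processing notes name mouse builds for these rat libraries. It lay at 303, 405 and 485 CPM in NC, 162, 241 and 299 in CO and 69.9, 158 and 226 in CLCF1. Every CO and every CLCF1 library was below every NC library. The fold change was -0.75 ± 0.22 in CO against NC (adjusted p = 0.0317 in edgeR), -0.68 ± 0.22 in CLCF1 against CO (adjusted p = 0.0386) and -1.44 ± 0.22 in CLCF1 against NC (adjusted p = 0.000919). The last of these was called whichever library was left out. The first was lost without NC library 1, 3 or 6 or CO library 1, 4 or 6 (adjusted p up to 0.0644 in edgeR), and the second without CO library 1, 2, 3 or 5 or CLCF1 library 3, 4 or 5 (up to 0.0816). In libraries 1 and 2 alone the values were -0.65, -0.44 and -1.09.

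Its copy Rps27a-ps1 went the other way. It is on chromosome 5, from 138628482 to 138629026 on the minus strand, 545 bases long where the transcript of Rps27a has 471, protein-coding in the table and a pseudogene in RefSeq. It lay at 41.7, 125 and 339 CPM in NC, 100.4, 260 and 398 in CO and 363, 464 and 746 in CLCF1. The CLCF1 libraries were all above the NC libraries (1.67 ± 0.41, adjusted p = 0.0167 in edgeR). Over all libraries Rps27a held 46.3% of the counts of the 6 entries described as S27a and Rps27a-ps1 held 53.7%. Summed, these entries lay at 426, 566 and 702 CPM in NC, 317, 491 and 689 in CO and 433, 666 and 856 in CLCF1. The sum did not pass in any comparison: -0.17 ± 0.18 (adjusted p = 0.581), 0.37 ± 0.18 (adjusted p = 0.170) and 0.20 ± 0.18 (adjusted p = 0.530). Which copy a read came from cannot be told from counts, so the direction of each entry is uncertain.

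**Figure D4:**
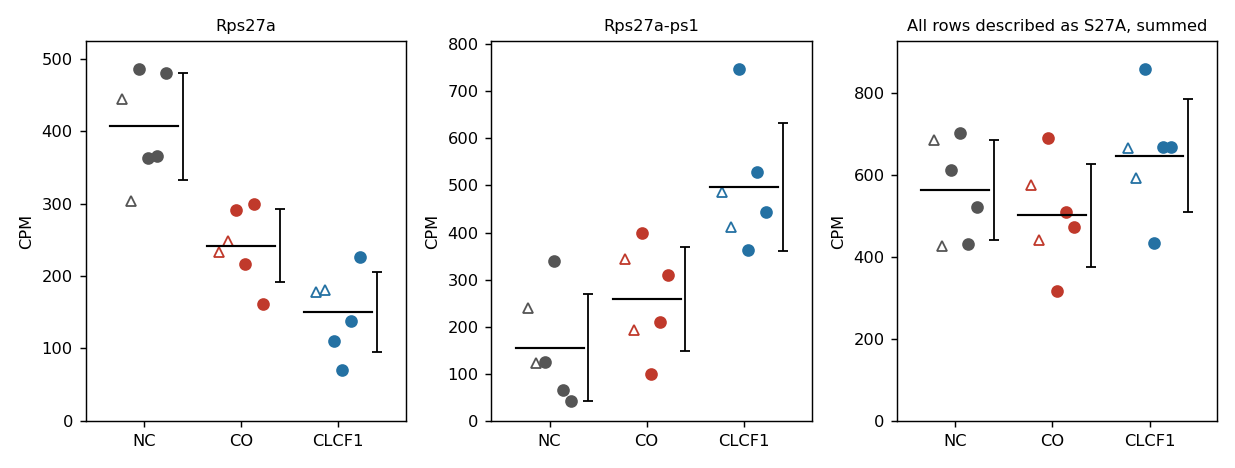
CPM of Rps27a, of Rps27a-ps1 and of all 6 entries described as S27a summed, for the 6 libraries of each group (open triangles are libraries 1 and 2, circles libraries 3 to 6, line and bar are mean and SD). Rps27a falls from 407 to 242 and 150 CPM in the means of NC, CO and CLCF1, its copy goes from 156 to 259 and 496, and the sums overlap in all 3 groups.

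Summing the copies was then done for every ribosomal protein. Descriptions tied 632 entries to 81 proteins, of which 72 have a member by symbol and 9 are carried only by entries under other names. In CO against NC 2 proteins were higher and 2 lower of the 81, where 12.6% of all genes in that fit passed. In CLCF1 against CO 12 were higher and 1 lower, where 17% of all genes passed. In CLCF1 against NC 12 were higher and 0 lower by edgeR, where 8.9% of all genes passed, with 67 of 81 above 0 and a median of 0.16. Libraries 1 and 2 alone called 0 proteins in each comparison, with 2, 3 and 5 at an unadjusted p below 0.05 and medians of -0.03, 0.18 and 0.17. In those libraries, with copies not summed, 594, 817 and 418 of all 16820 genes had an unadjusted p below 0.05 in edgeR.

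The proteins P2, S6 and S9 and the single entries named with them were chosen after their values were seen. All values are mRNA counts, and which copy a read came from cannot be told from them. The summed counts of P2, the third stalk protein, were higher in CO than in NC. Its summed entries lay at 38.1, 56.8 and 62.4 CPM in NC, 88.4, 148 and 214 in CO and 61.8, 72.4 and 88.4 in CLCF1. The change was 1.46 ± 0.18 in CO against NC (adjusted p = 0.000174 in edgeR) and -1.01 ± 0.17 in CLCF1 against CO (adjusted p = 0.00119). No CO library overlapped NC.

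The entry that differed was LOC100911575 on chromosome 1, with 0.509 to 10.9 CPM in NC, 35.6 to 172 in CO and 4.11 to 35.0 in CLCF1. Its change in CO against NC was 4.91 ± 0.67 (adjusted p = 0.000533 in edgeR). The entry that carried most P2 counts in NC, LOC498555, lay between 32.6 and 63.2 CPM in all 18 libraries and changed by -0.07 (adjusted p = 0.748). In libraries 1 and 2 alone P2 summed changed by 1.36 (unadjusted p = 0.00698 and adjusted p = 1.00 in edgeR).

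The summed counts of S6, the protein whose phosphorylation by S6 kinases reports mTOR activity, were higher in CLCF1. Neither the protein nor its phosphorylation was measured. The 5 entries of S6 lay at 11.8, 20.8 and 41.9 CPM in NC, 20.2, 23.5 and 30.7 in CO and 49.2, 74.6 and 142 in CLCF1, with every CLCF1 library above all others. The change was 1.87 ± 0.30 against CO (adjusted p = 0.000718 in edgeR) and 1.76 ± 0.29 against NC (adjusted p = 0.00153). The entry Rps6 itself held 10.8% of these counts and did not pass (0.36 ± 0.19 against CO, adjusted p = 0.1997), and the change lay in LOC100911372 on chromosome 5, with medians of 8.96, 7.62 and 58.5 CPM. In libraries 1 and 2 alone S6 summed changed by 1.42 against CO and 1.82 against NC, with adjusted p = 0.115 and 0.0798 in edgeR.

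S9, which no member carries, lay at 1.85, 24.0 and 53.2 CPM in NC, 2.02, 22.9 and 33.4 in CO and 28.0, 93.3 and 197 in CLCF1. The change against CO was 2.36 ± 0.65 (adjusted p = 0.0179 in edgeR) and against NC 2.03 ± 0.64 (adjusted p = 0.0521). In libraries 1 and 2 alone it changed by 1.52 and 1.91 (adjusted p = 0.115 and 0.0798 in edgeR). The sums of S6 and S9 were low beside that of S3, with medians of 641, 596 and 591 CPM in NC, CO and CLCF1. Sums of some other proteins were also low in NC, such as L10a, L35a and L23a with medians of 10.8, 11.4 and 23.9 CPM. Whether reads of S6 and S9 were counted elsewhere was not tested.

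**Figure D5:**
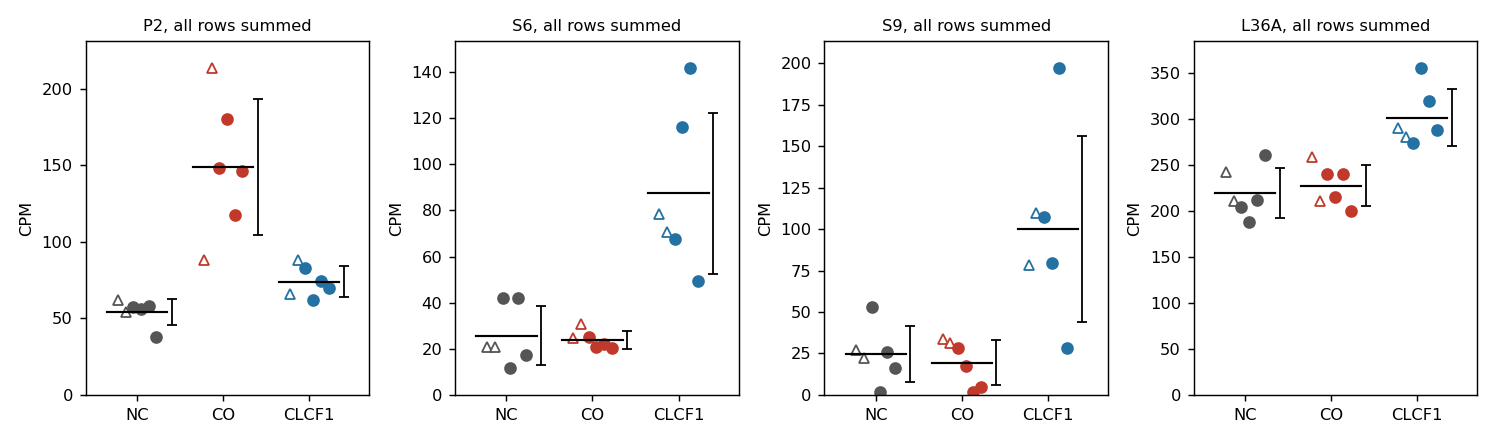
CPM with all entries summed for P2, S6, S9 and L36a in the 6 libraries of each group (open triangles are libraries 1 and 2, circles libraries 3 to 6, line and bar are mean and SD). P2 is highest in CO with a mean of 149 CPM, S6 is highest in CLCF1 with a mean of 87.4 CPM, S9 reaches 197 CPM there, and the lowest CLCF1 library of L36a has 274 CPM.

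Other sums, again chosen after their values were seen, changed by less. L36a rose in CLCF1 by 0.41 ± 0.10 against CO and 0.46 ± 0.10 against NC (adjusted p = 0.0092 and 0.00803 in edgeR), with no overlap. S29 rose by 0.65 ± 0.13 against CO (adjusted p = 0.00291). Its entry on chromosome 13 lay at 2.12, 7.39 and 37.3 CPM in NC, 16.1, 32.0 and 60.3 in CO and 45.2, 66.5 and 100.1 in CLCF1. That on chromosome 3 lay at 1.19, 7.22 and 24.4 in NC, 9.08, 18.5 and 31.6 in CO and 25.99, 61.2 and 79.4 in CLCF1. In CLCF1 neither passed against CO (adjusted p = 0.135 and 0.0502 in edgeR), and both passed against NC (0.00575 and 0.00994). L39, a short protein at the exit tunnel, rose by 0.59 ± 0.15 against CO (adjusted p = 0.0136), although its entry Rpl39 did not pass (0.30 ± 0.16, adjusted p = 0.206). L8 was 0.51 ± 0.13 higher in CO than in NC (adjusted p = 0.0165) and 0.49 ± 0.13 higher in CLCF1 than in NC (adjusted p = 0.0236).

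Of the paralogue pairs, Rpl3 and Rpl3l, Rpl7 and Rpl7l1, Rpl10l and Rpl39 passed in none of the 3 comparisons by edgeR. Rpl7, at 531, 526 and 575 CPM in the means, changed by 0.13 ± 0.12 in CLCF1 against CO and its paralogue Rpl7l1 by 0.14 ± 0.17 (adjusted p = 0.5105 and 0.595 in edgeR). Rpl10l, a germ-cell paralogue of L10, had 7.69, 5.86 and 4.92 CPM and changed by -0.65 ± 0.34 in CLCF1 against NC (adjusted p = 0.249). Rpl3 changed by 0.14 ± 0.13 and Rpl3l by -0.83 ± 0.54 in CLCF1 against CO (adjusted p = 0.480 and 0.304). Rps19bp1 had 14.9, 16.3 and 20.3 CPM and changed by 0.45 ± 0.19 in CLCF1 against NC (adjusted p = 0.151). Rpsa, a small-subunit protein outside the name rule that is also known as the laminin receptor, had 640 ± 89.3, 553 ± 107 and 677 ± 54.7 CPM, with no comparison past the threshold.

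The counts for lists of genes that act on ribosomes stand beside 12.7% of all genes passing in CO against NC, 17% in CLCF1 against CO and 9.26% in CLCF1 against NC, as given above. Of 56 ribosome biogenesis genes, 4 were higher and 1 lower in CO than in NC, 2 higher and 6 lower in CLCF1 than in CO, and 3 higher and 1 lower in CLCF1 than in NC. In CO, Ddx21, a helicase of ribosomal RNA transcription, rose by 0.51 ± 0.14 (adjusted p = 0.0238) and Bysl, an assembly factor of the small subunit, by 0.59 ± 0.13 (adjusted p = 0.00726). Libraries 1 and 2 alone gave smaller changes, 0.11 for Ddx21 and 0.27 for Bysl. In CLCF1 Noc4l fell below CO by 0.78 ± 0.13 on the log2 scale (adjusted p = 0.00109 in edgeR). Nhp2 went the other way, from 0.360 ± 0.542 CPM in CO to 16.1 ± 15.1 in CLCF1 (5.44 ± 1.14, adjusted p = 0.00405). For Noc4l and Nhp2, libraries 1 and 2 alone gave -0.58 and 4.19.

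Of 36 initiation factors, 1 was higher and 0 lower in CO than in NC by edgeR, 1 higher and 2 lower in CLCF1 than in CO, and 0 higher and 1 lower in CLCF1 than in NC. Of 12 other mRNAs with the pyrimidine tract, 2 were higher in CLCF1 than in CO and 1 in CLCF1 than in NC. That gene, Tpt1, which codes for the tumour protein TCTP, had 554, 660 and 1021 CPM in NC, CO and CLCF1 and rose by 0.63 ± 0.20 and 0.88 ± 0.20 (adjusted p = 0.0324 and 0.00937 in edgeR).

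Of 27 genes of the mTOR pathway and of translation control, 3 were higher and 1 lower in CO than in NC, and 1 higher and 2 lower in CLCF1 than in CO, beside 12.7% and 17% of all genes. Ddit4, an inhibitor of mTOR complex 1 that is induced by hypoxia, had means of 81.4, 213 and 71.8 CPM, higher in CO than in NC by 1.39 ± 0.44 (adjusted p = 0.0428 in edgeR) and lower in CLCF1 than in CO (-1.57 ± 0.44, adjusted p = 0.0196). Eif4ebp2, a repressor of cap-dependent initiation, had 12.9, 4.73 and 11.3 CPM and went the other way (-1.45 ± 0.36 and 1.26 ± 0.35, adjusted p = 0.0132 and 0.0205). Rptor and Akt1s1 were also higher in CO than in NC (0.48 ± 0.15 and 0.41 ± 0.13, adjusted p = 0.0398 and 0.0490 in edgeR). Of 19 genes of ribosome quality control and the p53 response, 2 were higher in CO than in NC, 1 was higher and 2 lower in CLCF1 than in CO, and 1 was higher in CLCF1 than in NC. Cdkn1a, the p53 target p21, had 8.35, 44.0 and 22.2 CPM and was higher in CO than in NC by 2.40 ± 0.44 (adjusted p = 0.00252 in edgeR). Of 10 S6 kinase genes 1 was higher and 1 lower in CLCF1 than in CO. Of 75 tested proteins of the mitochondrial ribosome, 5 were higher and 0 lower in CO than in NC by edgeR, 2 higher and 4 lower in CLCF1 than in CO, and 3 higher and 1 lower in CLCF1 than in NC. Their medians were 0.08, -0.04 and 0.05.

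Markers of other cell types also differed between the groups, beside the same shares of all genes. The summed level of 6 choroid plexus markers ran from 6.92 to 218 CPM in NC, 0.882 to 42.3 in CO and 65.6 to 5963 in CLCF1, and 5 of the 6 passed as higher in CLCF1 than in CO. Ttr, the main secreted protein of that epithelium, had means of 40.4, 9.52 and 2681 CPM. The sum of 7 fibroblast and meningeal markers ran from 353 to 454 CPM in NC, 143 to 299.9 in CO and 291 to 408 in CLCF1, with 4 lower in CO than in NC and 3 higher in CLCF1 than in CO. The sum of 6 ependymal markers ran from 40.6 to 67.4, 25.3 to 42.2 and 52.3 to 77.1 CPM. Of 8 neuron markers 1 was higher in CO than in NC, and 1 was higher and 2 lower in CLCF1 than in CO. Their sum ran from 4786 to 5308 CPM in NC, 5644 to 6434 in CO and 5168 to 6026 in CLCF1. For this sum every CO library was above every NC library. Of 7 astrocyte markers 1 was lower in CO and 2 in CLCF1 than in NC, and of 7 oligodendrocyte markers 1 was lower in CLCF1 than in CO. Of 8 microglia and macrophage markers 1 was higher and 1 lower in CO than in NC and 1 was higher in CLCF1 than in NC, and of 4 tested endothelial markers 0 passed by edgeR. Of 5 tested blood cell markers 1 was lower in CO than in NC, 1 higher in CLCF1 than in CO, and 1 higher and 1 lower in CLCF1 than in NC. No neuron, choroid plexus, fibroblast or ependymal marker was at 0 in all libraries, and their part in the members' levels was not tested.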

How the data were processed

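Rat brain RNA-seq (3 groups from the sample titles, 6 libraries per group) was analysed from the authors' deposited table of raw counts per gene. The values are whole counts, not normalized. The submitters' processing notes name the mouse builds GRCm38 and mm10, whereas the samples and gene identifiers are rat, so the build of the table's coordinates is uncertain. The aligner, the counter and strand use were not given in the sources used here.

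Members and gene lists were chosen with earlier results of these data known.

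Counts were analysed in R 4.3.3 with edgeR 4.0.16: TMM scaling, filterByExpr (16581 genes kept, 18292 not tested), 1 robust quasi-likelihood fit over 18 libraries and Benjamini-Hochberg adjustment over all genes tested. The script was tested on simulated data with independent libraries and a dispersion below that of the data. That test cannot give the error rate where libraries depend on each other. Alternatives were other scalings and filters, DESeq2 1.42.0, limma 3.58.1 (voom with quality weights), a replicate block, 2 groups only, libraries 1 and 2 or 3 to 6 alone, copies summed, and leaving out each library; DESeq2 on libraries 1 and 2 was added after seeing the data. Depth was 15.1 to 20.3 M counts, which limits the precision of members at a few CPM. Named members were up to 6 with the largest rise and fall among those passing in each comparison, the 3 highest and lowest per kilobase, the stalk genes, Rpl41, the paralogue pairs and members not described as ribosomal proteins. Copies were summed by the gene descriptions in the table. Promoter windows and gene types came from RefSeq (GRCr8), matched by symbol.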

Additional observations from a re-analysis of the deposited data

Results flagged for a closer look

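In 2 of 60 groups of 6 values that were examined, 1 library lay far from the other 5 of its group by Dixon's criterion, and chance flags about 1 in 20 groups. Rps4x had 148 CPM in NC library 3, where the nearest of the other NC libraries had 73.9. Rpl37-ps1 had 0.967 CPM in CO library 2, where the nearest of the other CO libraries had 0.378.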

How the results depend on the processing

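The median log2 fold change of the members kept its direction and moved by less than the spread between libraries in all settings tried, with the exception in direction that leaving out 1 library moved the CO against NC median between -0.07 and 0.02. For CLCF1 against CO it then ran from 0.13 to 0.19 and for CLCF1 against NC from 0.07 to 0.15. The number of members called, 8, 9 and 7, depended more on the setting. Without a filter 12 were called in CLCF1 against NC, and 11 with limma-voom. In CO against NC 5 were called with 2 groups only and 5 with copies summed. Libraries 1 and 2 alone gave 0, 0 and 0 by edgeR (2, 1 and 6 at an unadjusted p below 0.05) and 0, 0 and 2 by DESeq2. Of all genes, edgeR called 0.02%, 0.05% and 0.01% there. Libraries 3 to 6 alone gave 1, 1 and 2 by edgeR. This was 1.28%, 1.28% and 2.56% of the members, below the 5.51%, 8.62% and 4.42% of all genes. Fewer libraries entered those fits.

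Leaving out 1 library gave 3 to 8 calls in CO against NC, 4 to 10 in CLCF1 against CO and 4 to 10 in CLCF1 against NC. The count moved by over 1.5 times without NC library 1 (3), NC library 3 or 6 (5 each) or CO library 1, 4 or 6 (4 each) in CO against NC. In CLCF1 against CO it did so without CO library 1, 4 or 6 or CLCF1 library 1 (5 each) or CLCF1 library 3 or 5 (4 each), and in CLCF1 against NC without CLCF1 library 4 (4). No call of a named member changed sign. With the replicate block 7, 9 and 8 members were called, of which 6, 7 and 6 were called without it. Deviations of same-numbered libraries correlated between -0.03 and 0.15 over 18 pairs, and 5 of 18 were highest with their own number. These were numbers 1, 2 and 3 in CO against NC (0.05, 0.06 and 0.02) and 1 and 2 in CLCF1 against CO (0.06 and 0.15). The numbers were not taken to pair the libraries, although most members were higher in library 1 than in library 2 of each group, as given above.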
